A study of Mus musculus with 24 samples.

Results

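The genes described here are 9 parts of the mitochondrial route of programmed cell death, in mouse retinal organoids (MROs), small pieces of retinal tissue grown in culture from the wildtype mouse embryonic stem cell line E14TG2a. They were taken by symbol as the pore-forming effectors Bax and Bak1 and the anti-apoptotic proteins Bcl2 and Bcl2l1 (BCL-XL). The others were the BH3-only genes Bcl2l11 (BIM), Bbc3 (PUMA) and Pmaip1 (NOXA), and the apoptosome genes Casp9 and Apaf1. All 9 were found, among 126602 counted features, of which 46603 are annotated genes. RNA sequencing was performed on 24 individual MROs, 6 per timepoint, at D20, D22, D25 and D30 of differentiation. In the protocol of the paper, MROs were given the synthetic retinoid analog EC23 for some days before D20, the first timepoint here. All MROs were of the control genotype, received water as solvent, and came from 1 independent experiment with 1 cell line. The spread between organoids is therefore that within this experiment. The sample titles carry the word Ctrl at D22, D25 and D30 but not at D20. Each library came from a whole organoid, so that fewer cells of a type and less RNA per cell cannot be told apart in any value below.

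In this route, BAX and BAK1 sit in or move to the outer mitochondrial membrane and, once active, assemble into pores. BCL2 and BCL-XL hold them in check, and BH3-only proteins release or switch on the effectors. Cytochrome c that leaves through the pores joins APAF1, which recruits caspase 9 and so starts the caspase cascade. In the developing retina this route removes surplus progenitors and newborn neurons, and in adult photoreceptors it is known for being held at a low level.

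The depth was 13634846 to 19477108 counted reads in each organoid. All 9 genes passed the filter of a mean of at least 10 normalized counts over the 24 organoids, from a mean of 23 counts for Pmaip1 to 882 for Bcl2l1. Levels are given as normalized CPM, counts of a gene relative to the counted reads of its library, scaled with TMM. Photoreceptor markers rose from a summed 1077 to 2179 normalized CPM at D20 to 7274 to 14260 at D30, and all 10 were detected, so the labelled tissue showed its defining markers. Defining markers of microglia, the phagocytes of the retina, were near 0: the 7 genes together reached at most 1.28 normalized CPM in any organoid, and Tyrobp had no read.

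The clearest changes were a lower level of the BH3-only genes Bcl2l11 and Bbc3 at D25 and D30 than at D20, a higher level of Bcl2l1 at D25 than at D20, and an increase of Bcl2 at D30. Bbc3 was 0.51 times and Bcl2l11 0.69 times as high at D30 as at D20, and Bcl2 was 1.72 times as high. The effectors Bax and Bak1, Pmaip1, Casp9 and Apaf1 did not pass the threshold in any comparison, although Apaf1 and Casp9 passed it in some when only annotated genes were tested, as given with these genes. A call here is an adjusted p below 0.01 in the quasi-likelihood test of edgeR, adjusted by Benjamini-Hochberg over the 46949 features tested. In the joint test of any difference among the 4 timepoints, 4 of the 9 genes were called, where 27.2% of all tested features and 43.9% of the tested annotated genes were called. The 4 were Bcl2 (adjusted p = 0.00019), Bcl2l1 (adjusted p = 0.0029), Bcl2l11 (adjusted p = 0.00041) and Bbc3 (adjusted p = 0.0018). A count of 4 of 9 is near the background of annotated genes. With the counts restricted to annotated genes, the joint test called 6 of the 9.

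**Figure D1:**
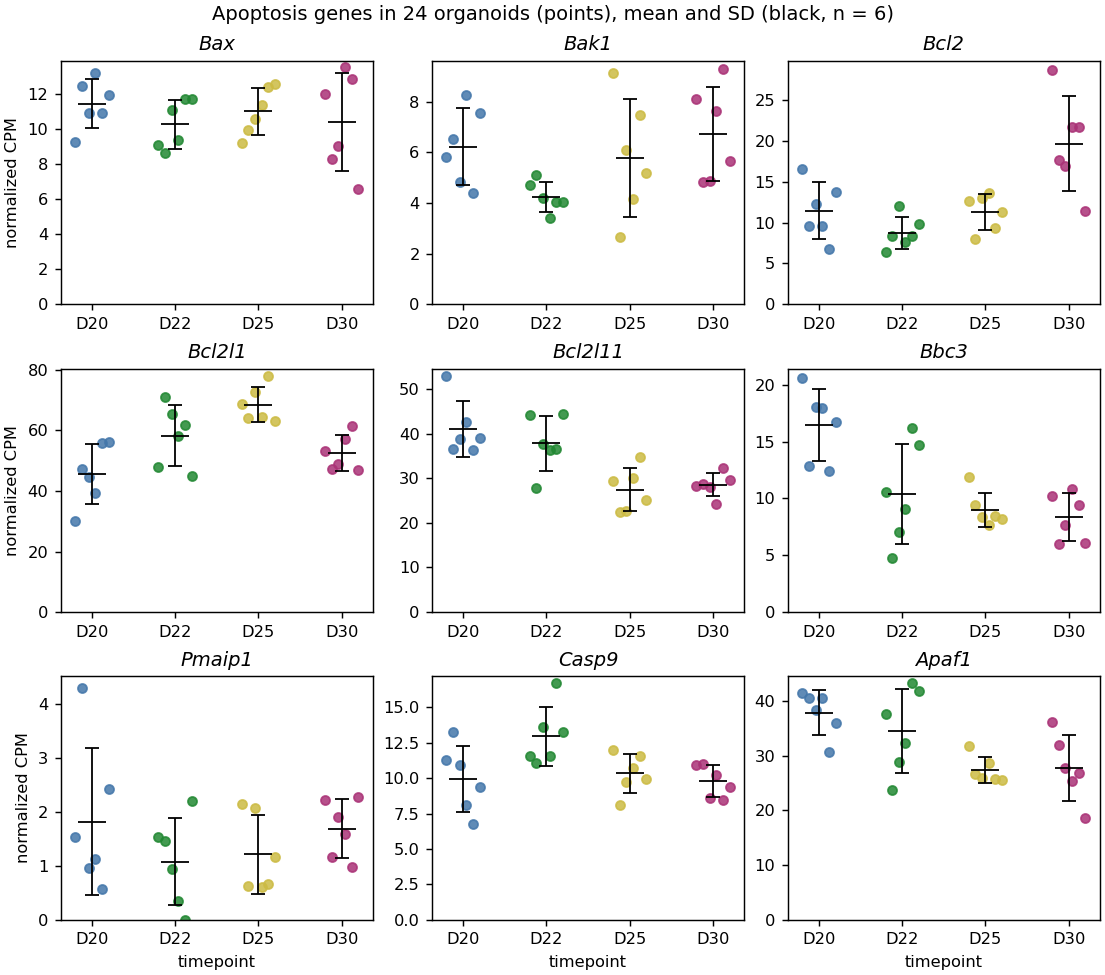
Normalized CPM (y axis, from 0) of each of the 9 genes in every organoid (points) at D20, D22, D25 and D30, with the mean and SD of the 6 organoids in black. Bbc3 and Bcl2l11 at D30 lie wholly below D20, while Bcl2 at D30 reaches 28.6 and overlaps D20 through its lowest organoid at 11.4.

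By comparison, no member was called between neighbouring timepoints. For D22 against D20, 0 members were called by edgeR (background 1.90% of features) and 0 by DESeq2, and 4 had an unadjusted p below 0.05. For D25 against D22, 0 were called by either tool (background 5.28%), with 2 below an unadjusted 0.05. For D30 against D25, edgeR called 0 (background 3.51%) and DESeq2 called 1, Bcl2, with 2 members below an unadjusted 0.05. Over longer intervals, 3 members were called for D25 against D20, 1 higher and 2 lower (background 15.1% of features and 25.2% of annotated genes, of which 14.8% of annotated genes higher and 10.4% lower). For D30 against D22 it was 1 member, which was higher (background 21.5% of features, 11.0% higher, and 35.5% of annotated genes). For D30 against D20 it was 3, 1 higher and 2 lower (background 26.8% of features and 41.8% of annotated genes, 25.1% higher and 16.7% lower). Read against these shares, the number of members called is not a result about the members, and the values of each gene follow. Comparisons that share a timepoint share its 6 organoids.

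Bcl2l11 encodes BIM, a BH3-only protein that binds all anti-apoptotic family members and can also activate BAX. Its lowest, median and highest organoids had 36.4, 38.9 and 53 normalized CPM at D20 and 27.7, 37.0 and 44.4 at D22. At D25 these values were 22.4, 27.3 and 34.6, and at D30 they were 24.3, 28.5 and 32.2. Every organoid of D25 and of D30 was below every organoid of D20, whereas D22 overlapped all other timepoints. The log2 fold change was -0.58 (SE 0.13, adjusted p = 0.00086) for D25 against D20 and -0.53 (SE 0.13, adjusted p = 0.0013) for D30 against D20. For D30 against D25 it was 0.06 (95% interval -0.20 to 0.31), which includes no change. The step from D22 to D25, a log2 fold change of -0.46 (SE 0.13), missed the threshold with an adjusted p of 0.015, and passed it at 0.0042 without D22 replicate 2, whose level of 27.7 was the lowest of D22, or at 0.0061 without D25 replicate 5. Also without D22 replicate 2, the fall from D22 to D30 went from an adjusted p of 0.013 to 0.0033.

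Bbc3 encodes PUMA, a BH3-only protein known as a direct target of p53. Its D20 organoids spanned 12.4 to 20.6 normalized CPM (median 17.4), and its D22 organoids from 4.75 to 16.2 (median 9.82). The range was 7.63 to 11.9 (median 8.43) at D25 and 6.00 to 10.9 (median 8.52) at D30. D22 was the most variable timepoint, with a 3.41-fold difference between its highest and lowest organoids, and 2 of its organoids lay within the range of D20. The D20 values lay wholly above those of D25 and D30. The log2 fold change was -0.87 (SE 0.22, adjusted p = 0.0041) for D25 against D20 and -0.98 (SE 0.22, adjusted p = 0.00082) for D30 against D20. The call for D25 against D20 was lost when D20 replicate 1 (adjusted p = 0.013), D25 replicate 4 (adjusted p = 0.012) or D25 replicate 6 (adjusted p = 0.011) was left out, with log2 fold changes of -0.81, -0.83 and -0.85. The call for D30 against D20 held without any single organoid, with adjusted p up to 0.0034.

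Pmaip1 encodes NOXA, a further p53 target that acts mainly on MCL1. It was the most sparsely counted member. D20 organoids had 0.569 to 4.30 normalized CPM and D22 organoids 0 to 2.195, followed by 0.609 to 2.14 at D25 and 0.979 to 2.27 at D30. All timepoints overlapped. One library, D22 replicate 5, had no read, and 3 reads amount to at most 0.22 normalized CPM at these depths. D30 against D20 gave a log2 fold change of -0.11 with a 95% interval of -1.20 to 0.99, so changes of a size within that interval were not resolved. Besides the low counts, the organoids differed widely, with a coefficient of variation of 75.3% at D20 and 32.1% at D30.

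Promoter sequences are shown for Bcl2l11 and Bbc3, because these are the members that fell together and because their windows share the same match. The windows are those of RefSeq on build GRCm38.p6, 250 bases before to 50 bases after an annotated start, and were found for 8 of the 9 genes (13 windows). The forkhead (FOXO) word GTAAACA, chosen after the values were seen, was searched on both strands. FOXO factors are known inducers of both genes, and Foxo3 is in a list described below. The word was found in 1 of 2 windows of Bcl2l11 and 1 of 3 of Bbc3, in no window of the other 6 genes, and in 3.65% of all 32817 windows. Because the word was picked with the values of these genes known, these shares are a description and not a test of enrichment. Only the 250 bases before the start are printed, 5′ to 3′ on the strand of the gene, with the match in capitals. The Bcl2l11 stretch, on the plus strand at chr2:128125788-128126037, lies directly before the first exon. The Bbc3 stretch, on the plus strand at chr7:16310011-16310260, lies before a start within the gene, in an intron of the annotated transcripts that span it.
Bcl2l11: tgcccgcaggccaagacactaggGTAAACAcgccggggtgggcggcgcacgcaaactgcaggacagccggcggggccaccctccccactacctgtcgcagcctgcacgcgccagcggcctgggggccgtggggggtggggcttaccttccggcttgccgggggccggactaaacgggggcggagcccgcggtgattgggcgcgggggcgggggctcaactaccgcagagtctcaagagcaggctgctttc
Bbc3: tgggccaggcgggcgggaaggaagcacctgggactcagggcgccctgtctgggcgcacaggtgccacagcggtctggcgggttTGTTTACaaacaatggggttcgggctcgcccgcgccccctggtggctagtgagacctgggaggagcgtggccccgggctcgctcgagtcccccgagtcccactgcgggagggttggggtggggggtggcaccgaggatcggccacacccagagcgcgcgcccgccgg
In Bbc3 the word stands on the opposite strand, as TGTTTAC. The matches begin 227 and 167 bases before their start sites. A match describes the letters and not a bound site.

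E2F factors, which drive S phase and are also known to induce BH3-only genes, were searched by the words TTTCCCGC, TTTGGCGC, TTTCGCGC and TTTGCCGC on both strands. Only 1 of the 13 windows held one, a window of Bcl2l1 with TTTCGCGC on the opposite strand, beginning 145 bases before the start. Of all windows, 2.26% held one. With the first T of each word removed, 3 of the 13 windows matched (1 each of Bax, Bcl2l1 and Bbc3), against 9.57% of all windows.

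Of the anti-apoptotic genes, Bcl2l1 was higher at D25 than at D20. Its lowest, median and highest organoids had 30.1, 46.0 and 56.1 normalized CPM at D20 and 45.0, 60.0 and 71.0 at D22. They had 63.1, 66.6 and 78.0 at D25 and 47.1, 51.0 and 61.6 at D30. The D25 organoids stood above all D20 and all D30 organoids. D25 against D20 gave a log2 fold change of 0.59 (SE 0.13, adjusted p = 0.00086), while D30 against D25, at -0.39 (SE 0.13, adjusted p = 0.067), did not pass the test although the groups did not overlap. D30 against D20 gave 0.21 (95% interval -0.06 to 0.47, adjusted p = 0.22). The joint call of Bcl2l1 was lost without D25 replicate 3 (adjusted p = 0.011).

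Bcl2, the founding member of the family, was higher at D30. At D20 it ranged from 6.83 to 16.6 normalized CPM, with a median of 10.9. The range was 6.44 to 12.0 at D22 (median 8.36) and 7.95 to 13.6 at D25 (median 11.9). At D30 it ranged from 11.4 to 28.6 (median 19.6). Of the D30 organoids, 5 exceeded every organoid of the other timepoints and replicate 6, at 11.4, lay among them. The log2 fold change was 1.16 (SE 0.21, adjusted p = 6.6e-05) for D30 against D22 and 0.78 (SE 0.21, adjusted p = 0.0033) for D30 against D20. For D30 against D25 it was 0.80 (SE 0.21, adjusted p = 0.014), and 0.91 (adjusted p = 0.0029) without D30 replicate 6. The D25 against D30 difference was also called when D20 replicate 1 (adjusted p = 0.0089) or D20 replicate 5 (adjusted p = 0.0082) was left out. The call for D30 against D20 was lost without D30 replicate 1, which had the highest level (log2 fold change 0.64, adjusted p = 0.016), and without D20 replicate 5, which had the lowest of D20 (0.68, adjusted p = 0.011).

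Markers of several cell types also changed by D30, not all in the same organoids as Bcl2. The first were those of Müller glia, the last cell type to arise in the retina. The 6 genes summed to 422 to 582 normalized CPM at D20 and 457 to 572 at D22. The sum was 755 to 1021 at D25 and 1152 to 4101 at D30, and 5 of the 6 genes rose for D30 against D20. Among the D30 organoids, replicate 1 had the highest marker sum and the highest Bcl2, and replicate 6 had the lowest of both. The 6 markers of cerebral cortex neurons summed to 94.2 to 114 normalized CPM at D22 and 49.2 to 321 at D30, and 4 of the 6 rose for D30 against D22. Among these 6, Neurod6 and Bhlhe22 are also used by the authors as markers of retinal interneurons. Bhlhe22 alone had 79.0 to 99.7 at D22, and Neurod6 had 0.776 to 175 at D30. The sum is therefore not specific to cortex neurons. For D30 against D20, where the D20 sums reached 328, 0 of these 6 were called. Their sum at D30 was also highest in replicate 1 and lowest in replicate 6. The 6 markers of bipolar cells, interneurons of the retina, rose together for D30 against D20, from a summed 28.1 to 35.8 to 212 to 340 normalized CPM. Here replicate 1 had the lowest sum at D30. Markers of the pigment epithelium summed to 22.2 to 2647 normalized CPM at D30, and 1 of the 3 tested rose for D30 against D20. Most of this sum was Ttr, with 19.9 to 2627. The defining marker Rpe65 reached at most 0.196 at D30, and Rpe65, Mlana and Best1 were not tested. Replicate 6, lowest in Bcl2 at D30, had a sum of 2471. The part of any of these cell types in the result for Bcl2 was not tested. Markers of progenitors and proliferation moved with Bcl2l11 and Bbc3. The 10 genes summed to 1224 to 1763 normalized CPM at D20 and 652 to 1234 at D22, and to 270.3 to 1020 and 342 to 583 at the later timepoints. All 10 fell for D30 against D20. Of 9 tested markers of amacrine, horizontal and ganglion cells, neurons of the inner retina, 4 fell and 1 rose for D25 against D20. The same numbers fell and rose for D30 against D20. The part of any of these cell types in the fall of Bcl2l11 and Bbc3 was not tested.

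**Figure D2:**
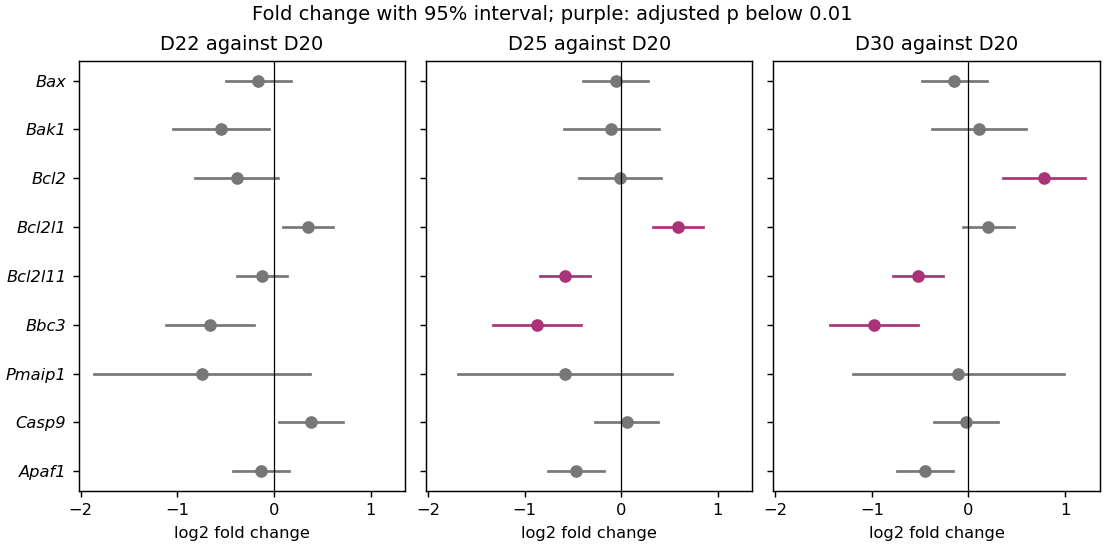
Log2 fold changes (points) with 95% intervals (lines) of the 9 genes for D22, D25 and D30, each against D20; purple marks an adjusted p below 0.01. At D22 no gene was called, at D25 Bcl2l1 was higher and Bcl2l11 and Bbc3 lower, and at D30 Bcl2 was higher and Bcl2l11 and Bbc3 lower.

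The level of the effector Bax moved least of the 9 between timepoints, with no log2 fold change beyond -0.16. D20 organoids had 9.30 to 13.2 normalized CPM (median 11.5) and D22 organoids 8.65 to 11.7 (median 10.2). D25 spanned 9.21 to 12.6 (median 11.0) and D30 6.60 to 13.5 (median 10.5). Every pair of timepoints overlapped. D30 against D20 gave a log2 fold change of -0.14 (95% interval -0.48 to 0.19, adjusted p = 0.53). The spread of Bax was largest at D30, with a coefficient of variation of 26.9% against 12.0 to 13.5% at the other timepoints, and D30 replicate 6 had its lowest value of the series. Of the exons of Bax, 12.2% overlap another annotated gene on the same strand, Gm45808, which had no row in the count tables.

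Bak1, the effector that resides in the mitochondrial membrane, ranged from 4.41 to 8.25 normalized CPM at D20 and from 3.42 to 5.09 at D22. The range was 2.65 to 9.15 at D25 and 4.83 to 9.27 at D30. D25 alone spanned 3.45-fold. Its largest difference was that of D30 against D22, a log2 fold change of 0.66 (SE 0.24, adjusted p = 0.038), which did not pass the threshold. The exons of Bak1 overlap those of Ggnbp1 on the opposite strand over 18.2% of their length. Whether the counting used the strand is not stated, and Ggnbp1 itself had a mean of 41.9 counts, so the counts of Bak1 are less certain.

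Apaf1, the scaffold of the apoptosome, lay just outside the threshold. At D20 it ranged from 30.6 to 41.5 normalized CPM with a median of 39.3, and D22 spanned 23.7 to 43.2 with a median of 34.9. At D25 the range was 25.5 to 31.8 (median 26.2) and at D30 18.5 to 36.1 (median 27.3). Of the 6 organoids of D20, 5 were above every organoid of D25, and D20 replicate 5 was the exception. The log2 fold change was -0.47 (SE 0.14, adjusted p = 0.015) for D25 against D20 and -0.45 (SE 0.14, adjusted p = 0.013) for D30 against D20. Without D20 replicate 5 both passed, at adjusted p = 0.0085 and 0.0092. Leaving out D22 replicate 2 (0.0085 and 0.0073 in the same order) also brought both past the threshold, whereas D30 replicate 1 did so for D30 against D20 (adjusted p = 0.0035) and D30 replicate 6 for D25 against D20 (adjusted p = 0.0070). With annotated genes only, Apaf1 was called for D25 against D20 (log2 fold change -0.51, adjusted p = 0.0033), D30 against D22 (-0.47, adjusted p = 0.0048) and D30 against D20 (-0.54, adjusted p = 0.0011). The joint call was gained without D20 replicate 5 (adjusted p = 0.0098), D22 replicate 2 (adjusted p = 0.0040) or D30 replicate 1 (adjusted p = 0.0048).

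Casp9, the initiator caspase of this route, ranged from 6.76 to 13.2 normalized CPM at D20 and from 11.1 to 16.7 at D22. It ranged from 8.09 to 12.0 at D25 and from 8.42 to 11.0 at D30. Every D30 organoid was below every D22 organoid. That difference, a log2 fold change of -0.41 (SE 0.16, adjusted p = 0.052), was nevertheless not called. With annotated genes only it was (log2 fold change -0.54, adjusted p = 0.0032). Among all features, D30 against D20 gave -0.02 (95% interval -0.35 to 0.30).

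To compare genes with one another, normalized CPM were divided by the length of the exons in kilobases. Bcl2l1 had the highest level of the 9 genes at every timepoint and Pmaip1 the lowest, whether the length was that of all annotated exons or of the longest transcript. At D20, Bcl2l1 had 9.92 ± 2.17 normalized CPM per kilobase (SD, n = 6), followed by Bbc3 with 7.76 ± 1.51 and Bax with 7.28 ± 0.88. The gaps from Bcl2l1 to Bbc3 and from Bbc3 to Bax were within the larger SD of each pair, whereas Bax stood above the next gene, Bcl2l11 (5.12 ± 0.78), by more than that. At D30, Bcl2l1 had 11.4 ± 1.29 and Bax 6.59 ± 1.78, and Bbc3 had fallen to 3.94 ± 0.99. From Bbc3 downwards, the levels of Bcl2l11, Apaf1, Bak1, Bcl2 and Casp9 at D30 were each within the larger SD of the next, the last being 1.88 ± 0.22. Bcl2 had 1.25 ± 0.38 at D20 and 2.15 ± 0.63 at D30, and even then stood well below Bcl2l1 on this scale.

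Ratios of the counts of a pair of genes within an organoid do not depend on the library scaling, and are given as a description. For Bcl2 to Bax, the log2 ratio at D20 was -0.05 ± 0.56 (SD, n = 6). It was -0.25 ± 0.25 at D22 and 0.02 ± 0.36 at D25, and reached 0.91 ± 0.22 at D30. Its range at D30, 0.68 to 1.25, overlapped that of D20 through a single D20 organoid at 0.83 and lay above D22 and D25. The D30 organoids that had low Bcl2 also had low Bax, and the SD of the ratio was 0.22 there against 0.56 at D20. For Bcl2l1 to Bcl2l11 the log2 ratio went from 0.13 ± 0.53 at D20 over 0.62 ± 0.49 at D22 to 1.33 ± 0.22 at D25, and was 0.88 ± 0.20 at D30, with D25 and D30 wholly above D20. For Bcl2l1 to Bbc3 it was 1.46 ± 0.59 at D20 and 2.59 ± 0.86 at D22. At D25 it was 2.94 ± 0.25 and at D30 2.68 ± 0.26, both wholly above D20.

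**Figure D3:**
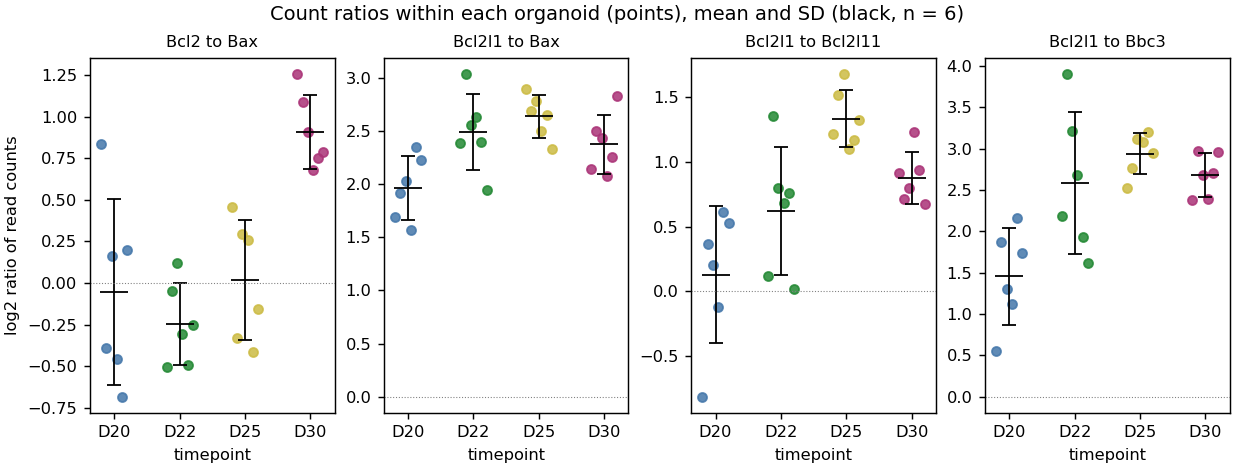
Log2 ratios of read counts within each organoid (points) for 4 pairs of an anti-apoptotic and a pro-apoptotic gene at each timepoint, with mean and SD (black, n = 6). The ratio of Bcl2 to Bax is highest at D30 (0.68 to 1.25), and those of Bcl2l1 to Bcl2l11 and to Bbc3 are above D20 from D25 on.

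Across the 24 organoids, the levels of Bcl2l11, Bbc3 and Apaf1 varied together. On log2 normalized CPM, Pearson's r was 0.63 between Bcl2l11 and Bbc3, 0.70 between Bcl2l11 and Apaf1 and 0.79 between Bbc3 and Apaf1, and -0.61 between Bcl2l1 and Bcl2l11. The other pairs, of 36 in all, had r from -0.53 to 0.53. These organoids share their timepoints, so the values are descriptions. The annotated genes with the most similar profiles, among 10823 searched, were Tacc1 (r = 0.91) and Fgfr1 (r = 0.89) for Bcl2, where Fgfr1 encodes a receptor of fibroblast growth factors. For Bcl2l1 they were Arhgap31 (r = 0.93) and Tle2 (r = 0.90), a corepressor. For Bcl2l11 they were Pus7 (r = 0.88) and Rev1 (r = 0.87), a pseudouridine synthase and a DNA repair polymerase. For Bbc3 they were Eef1d (r = 0.91), a translation elongation factor, and Zfp599 (r = 0.88).

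The wider apoptosis genes were taken as 8 lists of 62 genes in all, 56 of them tested. For D30 against D20, 34 of the 56 were called, beside 26.8% of all features and 41.8% of annotated genes. The lists were chosen with earlier results of these data known, so this count is not a test of apoptosis genes as a set. The median log2 fold change was -0.04 over all features and 0.10 over annotated genes, and each list is described beside these. A gene named below has an adjusted p from the same edgeR test.

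Among the other genes of the BCL2 family, 3 of 7 tested rose and 0 fell, with a median log2 fold change of 0.68. Bcl2l2 (BCL-w), an anti-apoptotic protein, went from 36.3 to 40.8 normalized CPM at D20 to 53.3 to 66.1 at D30 (log2 fold change 0.68, adjusted p = 8.6e-08). The BH3-only gene Bmf went from 3.57 to 7.02 up to 13.5 to 16.5 (1.56, adjusted p = 1.6e-07), and Hrk, a BH3-only gene of neurons, rose by 1.05 (adjusted p = 0.0013) with overlapping timepoints. BH3-only genes thus moved in both directions, with Bcl2l11 and Bbc3 lower and Bmf and Hrk higher. Mcl1, the most highly counted of these family genes, chosen here after its values were seen, was not called (log2 fold change -0.19, adjusted p = 0.055).

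Of 5 caspases, 0 rose and 2 fell. Casp6, an executioner caspase, went from 11.6 to 19.0 normalized CPM at D20 to 5.33 to 8.76 at D30 (log2 fold change -1.20, adjusted p = 3.3e-06). Casp2 fell by 0.76 on the log2 scale (adjusted p = 6.0e-05). Of 5 factors released from mitochondria, 3 rose and 1 fell. Cycs, the gene of cytochrome c, rose by 0.77 (adjusted p = 1.7e-06) and the protease gene Htra2 by 0.72 (adjusted p = 6.8e-05), while Aifm1 fell by 0.56 (adjusted p = 8.9e-06). Cytochrome c also carries electrons in respiration.

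Of 3 tested inhibitors of apoptosis, 1 rose and 1 fell. Xiap, which blocks caspases directly, went from 84.9 to 143 normalized CPM at D20 to 246 to 368 at D30 (log2 fold change 1.27, adjusted p = 1.1e-09), and Birc2 fell by 0.33 (adjusted p = 0.0025). Of 6 tested death receptor genes, 1 rose and 0 fell. It was Cflar, an inhibitor of caspase 8 (log2 fold change 0.81, adjusted p = 2.5e-07).

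**Figure D4:**
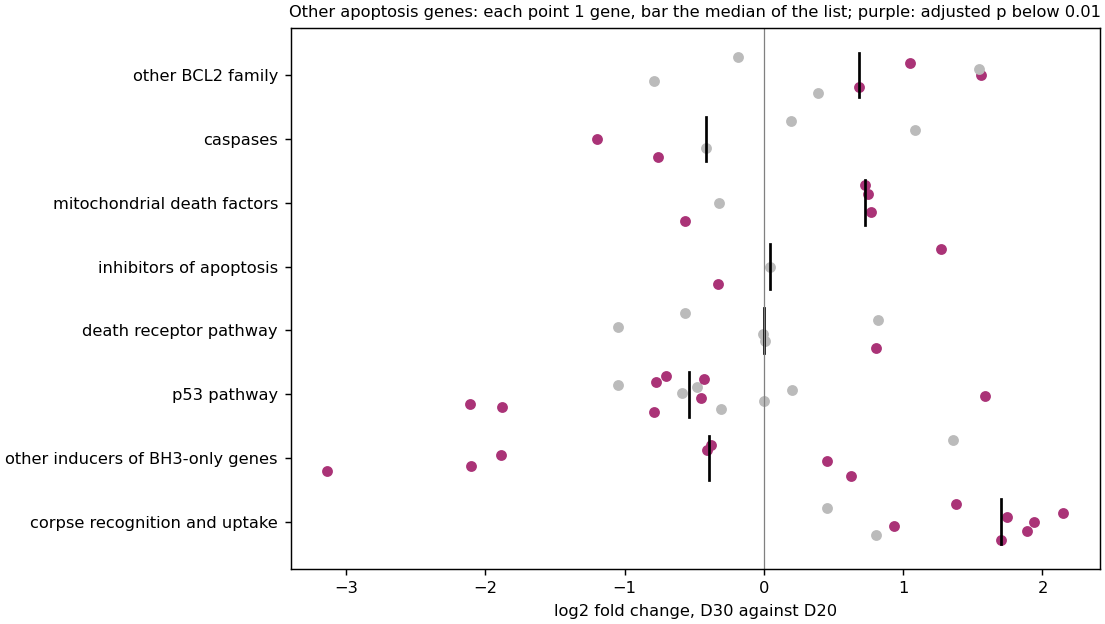
Log2 fold change for D30 against D20 (x axis) of each tested gene (points) in 8 lists of apoptosis genes, with the median of each list as a bar; purple marks an adjusted p below 0.01. E2f1 lies farthest to the left at -3.13, and the uptake genes lie farthest to the right as a list, with a median of 1.70.

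Of 14 genes of the p53 pathway, 7 fell and 1 rose, with a median log2 fold change of -0.54. Cdkn1a, the cell cycle inhibitor p21, went from 17.5 to 34.8 normalized CPM at D20 to 3.36 to 9.98 at D30 (log2 fold change -1.88, adjusted p = 1.4e-07). Eda2r fell by 2.11 (adjusted p = 9.8e-07) and Mdm4, which restrains p53, fell by 0.45 (adjusted p = 2.4e-05). Trp53 itself, named here after its values were seen, fell by 0.77 (adjusted p = 0.00085), and the gene that rose was Perp (log2 fold change 1.58, adjusted p = 0.0040), also named afterwards. Bbc3 and Pmaip1 are p53 targets as well, of which Bbc3 fell and Pmaip1 was not called.

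Of 8 genes listed as other inducers of BH3-only genes, 5 fell and 2 rose. The 5 include E2f7, which is a repressor and not an inducer. E2f1 went from 38.0 to 54.6 normalized CPM at D20 and 12.9 to 33.1 at D22 to 7.25 to 11.9 at D25 and 3.88 to 7.84 at D30 (log2 fold change -3.13, adjusted p = 1.1e-13). E2f2 fell by 2.11 (adjusted p = 1.7e-06) and E2f7, an E2F repressor, by 1.89 (adjusted p = 2.8e-06). Foxo3, named after its values were seen, fell by 0.41 (adjusted p = 0.00077). Its organoids had 129 to 158 normalized CPM at D20 and 157 to 214 at D22, then 125 to 167 at D25 and 93.4 to 118 at D30. Ddit3 and E2f3 of the same list, also named afterwards, had higher medians at D30 than at D20, with overlapping organoids. The median of Ddit3 went from 55.04 to 84.5 normalized CPM and that of E2f3 from 23.43 to 32.51. The part of Foxo3, Ddit3 or E2f3 in the levels of Bcl2l11 and Bbc3 was not tested. The markers of proliferation that fell with the E2F genes are given above, and their part was not tested.

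Of 9 genes for recognition and uptake of dead cells, 7 rose and 0 fell, with a median log2 fold change of 1.70. Gas6, a ligand that bridges dead cells to receptor kinases, went from 32.5 to 44.1 normalized CPM at D20 to 116 to 179 at D30 (log2 fold change 1.89, adjusted p = 6.5e-14). Mfge8, another bridging protein, rose by 2.15 (adjusted p = 3.4e-13), and the engulfment receptor gene Megf10 by 1.94 (adjusted p = 8.3e-08). Müller glia can take up dead cells, and their markers rose in the same comparison, with a median log2 fold change of 2.90. The medians of bipolar cell and photoreceptor markers were higher, at 4.69 and 3.39. Among the D30 organoids, replicate 1 had the highest sum of Müller glia markers. It had the lowest Gas6 (116) and Mfge8 (119) of D30, but the highest Megf10 (35.7). The part of any of these cell types in the uptake genes was not tested. Microglia markers were near 0, as given above.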

How the data were processed

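RNA of whole single organoids was depleted of ribosomal RNA and sequenced as strand-specific libraries. The authors processed reads with bcl2fastq (version 2.20), cutadapt (version 1.5), HISAT2, SAMtools (version 1.1), StringTie (version 1.3.3) and HTSeq (version 0.6.1) on GRCm38, per the processing notes. They deposited raw counts per annotated gene or assembled locus, with no normalization. Reads without a unique feature were left out by the counting. Whether it used the strand is not stated in the sources used here, and summary lines were omitted. Groups and replicate numbers were taken from the sample labels.

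Only features whose base mean reached 10 were kept, 46949 in all and 16253 of them annotated genes. Counts were TMM-normalized and fitted with edgeR 4.0.16 under R 4.3.3, in 1 fit of all 24 organoids without covariates, as 6 comparisons and a joint test, with Benjamini-Hochberg adjustment over all features and a threshold of 0.01. Standard errors were derived from the F statistic. The common biological coefficient of variation was 0.3846. Depth was 13634846 to 19477108 reads on features per organoid. The limit of 3 counts covers counting error only. No 2 libraries of a timepoint agreed within sampling noise. Symbols, coordinates and exon lengths were from GENCODE vM21 (46005 of 46603 identifiers matched). The members and lists were chosen with earlier results of these data known.

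Named were all 9 members, in each wider list at most 3 called genes of lowest adjusted p, and for each member called in the joint test the 2 annotated genes of highest correlation (mean of at least 100 normalized counts, pseudocount 0.5 CPM). The pipeline was tested on simulated data. Alternatives were the test and size factors of DESeq2 (version 1.42.0), annotated genes only, no filter, filterByExpr, the replicate block, fits of the 2 compared timepoints, the length of the longest transcript and shorter E2F words. The omission of each organoid and the FOXO word were added after seeing the data. Plots were made with Python 3.11.15 and matplotlib 3.10.9.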

Additional observations from a re-analysis of the deposited data

How the results depend on the processing

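Of the log2 fold changes of the 9 genes recomputed under 7 alternatives, 360 of 378 kept their direction and their side of the threshold, 10 newly passed it, 1 no longer passed it and 7 changed sign, none of them a called value. With annotated genes only, which moved the log2 fold changes of annotated genes by a median of up to -0.14 (D30 against D22), 1 member was called for D25 against D22, 1 for D30 against D25 and 4 for D30 against D22 (Bcl2, Bcl2l11, Casp9 and Apaf1). In that setting D25 against D20 and D30 against D20 went from 3 members to 4 each, with Apaf1 added, and the joint test from 4 to 6. For D30 against D25, 1 member (Bcl2) was also called by DESeq2 and with the size factors of DESeq2 in edgeR. The signs that changed were those of Apaf1 for D30 against D25 (-0.038) and Bax for D30 against D22 (-0.14) with annotated genes only, Bcl2 for D25 against D20 without filter (0.017) and with filterByExpr (0.0020), Casp9 for D30 against D20 by DESeq2 (0.0377) and with its size factors (0.0379), and Pmaip1 for D30 against D20 with the replicate block (0.052). Bcl2 for D30 against D20 missed the threshold when only these 2 timepoints were fitted (adjusted p = 0.010). The cause was not tested.

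The replicate numbers did not pair the organoids, since the correlation of deviations between same-numbered organoids was -0.09 to 0.26 (mean 0.01). With the replicate block, 3 members were called for D30 against D20 and no call of a member changed. Without each organoid in turn, the members called were 0 for D22 against D20, 0 to 1 for D25 against D22, 0 to 1 for D30 against D25, 2 to 4 for D25 against D20, 1 to 2 for D30 against D22, 3 to 4 for D30 against D20 and 3 to 5 in the joint test. The wider lists gave 31 to 36 calls without an organoid, and 31 to 38 under the other settings. With the length of the longest transcript, 23 of 36 levels per kilobase moved by more than 1 SD. Pmaip1 is the least certain member, with the fewest counts and the largest spread between organoids.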
